A study of Apis mellifera with 12 samples.

Results

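The miRNAs miR-31a and miR-210 were followed in the brains of honey bee (Apis mellifera) workers after RNA interference against vitellogenin. They are the 2 of 168 miRNA probes named ame-miR-31a and ame-miR-210, taken because work on honey bee nurses and foragers discusses them. The choice did not use their values here, but it was made with earlier results of these data known. The dsVg group held 6 brain pools from workers injected with double-stranded RNA (dsRNA) against vitellogenin, and the dsGFP group held 6 pools from workers given dsRNA against green fluorescent protein, the sham control. All workers were injected in the abdomen as newly emerged adults, with 2 µL of dsRNA at 10 µg/µL, and were 15 days old at sampling. Each pool joined small RNA from 5 bees, 200 ng from each, and was hybridised to its own 1-colour array. The labels name the tissue as forager brain, but behaviour was not a factor in the design. Vitellogenin mRNA is not a target of these arrays, and how far it was lowered was not analysed here.

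A miRNA is a short RNA that guides Argonaute proteins to messenger RNAs, mainly by pairing of its seed, bases 2 to 8, and lowers their output. Honey bee workers pass from nursing in the hive to foraging outside as they age. Vitellogenin, the yolk precursor protein, is known to slow that passage. In vertebrates miR-31 is known from epithelia, and miR-210 is known as a target of the response to low oxygen. In Drosophila miR-210 is known from the visual system and from clock neurons.

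The mature sequences below are the probes' target sequences as the scanner tables give them, 5′ to 3′, with the seed in capitals, and they are shown because the composition of both recurs in the results.
miR-31a: gGCAAGAUgucggcauagcuga
miR-210: uUGUGCGUgugacagcggcua
The 2 sequences are 22 and 21 bases long, and their longest common stretch is 4 bases. No other of the 168 probes shares the seed of either miRNA. The longest stretch that miR-31a shares with any other probe is 8 bases, with miR-8, and that of miR-210 is 7 bases, with miR-3722. Over the 12 pools the r between miR-31a and miR-8 was -0.49 after the group means were subtracted, a description with no test. Whether either probe picks up the other miRNA was not tested. The probe of miR-3722 was detected on 4 arrays and was not tested. Both miRNAs are rich in G and C, at 54.5% for miR-31a and 57.1% for miR-210, against a median of 45.5% over the probes. In the RefSeq gene table for Amel_HAv3.1, the gene of miR-31a lies within the long non-coding RNA gene LOC102656787. No annotated gene overlaps that of miR-210, which lies between the miRNA gene Mir6038 and the protein-coding gene LOC408663.

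Detection came first, because it needs no normalization between arrays. Detection meant that the mean intensity over a miRNA's 18 spots exceeded the 95th percentile of the 608 empty spots of the same array. By this rule both miRNAs were detected on all 12 arrays, as were 33 of the 168. With the mean of the empty spots plus 3 SD as the threshold, miR-210 was still detected on all 12 arrays, but miR-31a was detected on 10. It fell short in dsVg pool 5, at 690 against a threshold of 753, and in dsGFP pool 5, at 342 against 410.4. By that threshold 28 miRNAs were detected on all arrays. The empty spots themselves were at medians of 114 to 478 in dsVg arrays and 74.8 to 320 in dsGFP arrays. The number of detected miRNAs was 34 to 168 in dsVg arrays and 49 to 165 in dsGFP arrays. All 168 probes passed in dsVg pool 1 and 165 in dsGFP pool 1, so detection on those arrays sets hardly any probe apart. Each group had 3 arrays with over 80 detected miRNAs (dsVg pools 1, 2 and 3, dsGFP pools 1, 3 and 4) and 3 with fewer, and results are also given within these 2 kinds of array.

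The mean intensity of miR-31a was 443, 313, 499, 318, 690 and 390 in dsVg pools 1 to 6, against 351, 504, 320, 215, 342 and 295 in dsGFP pools 1 to 6. The dsVg pool 5 had the highest intensity and dsGFP pool 4 the lowest, and the groups overlapped. Against the 95th percentile of the empty spots these intensities were 1.11-fold to 3.58-fold in dsVg pools and 1.08-fold to 3.95-fold in dsGFP pools. The signal of miR-31a was thus close to that of the empty spots on part of the arrays of both groups. The median miRNA probe itself lay below the median empty spot in dsVg pools 4, 5 and 6 and dsGFP pool 2, and above it in the other pools. In dsVg pool 5 the median probe was at 352 and the median empty spot at 478. All 18 spots exceeded that percentile on 11 arrays, and 16 of 18 did in dsGFP pool 5. The margin over the empty spots, in log2, was 0.85 ± 0.63 in dsVg pools and 0.74 ± 0.67 in dsGFP pools (SD, n = 6 each), which is a gap of 0.11 by an exact two-sided permutation test (p = 0.790). The difference in margin was -0.019 without dsGFP pool 5 and -0.092 without dsVg pool 3, so it had no firm direction.

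The mean intensity of miR-210 was 4740, 5626, 7568, 6185, 15384 and 6085 in dsVg pools 1 to 6, against 2686, 7270, 5437, 4340, 1915 and 3094 in dsGFP pools 1 to 6. The dsVg pool 5 stood far above the other pools, and the remaining dsVg pools lay within the range of the dsGFP pools, apart from dsVg pool 3. The intensity was 14.6-fold to 54.3-fold over the 95th percentile of the empty spots in dsVg pools and 6.04-fold to 67.2-fold in dsGFP pools, and all 18 spots exceeded it on every array. The margin in log2 was 4.89 ± 0.70 in dsVg pools and 4.25 ± 1.28 in dsGFP pools (SD, n = 6 each), which is a gap of 0.63 by the same exact test (p = 0.310). This difference was smaller than the SD of the dsGFP pools.

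**Figure D1:**
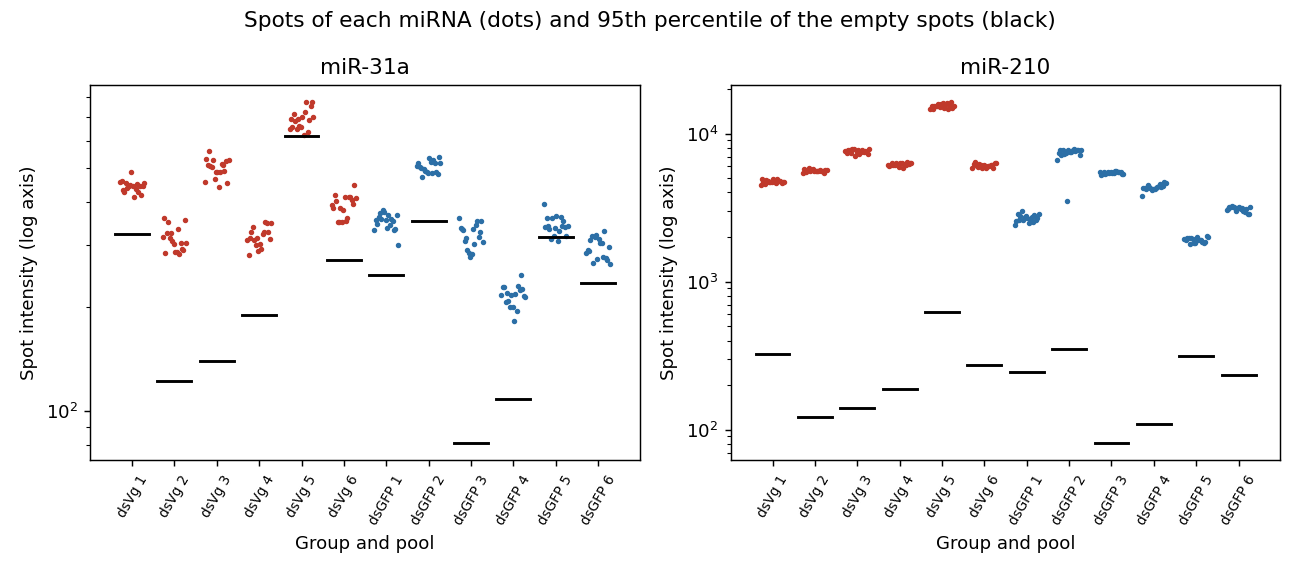
Intensity of each of the 18 spots of miR-31a (left) and miR-210 (right) on a log axis, for dsVg pools 1 to 6 (red) and dsGFP pools 1 to 6 (blue). The black bars mark the 95th percentile of the empty spots of the same array. The spots of miR-31a lie close above the bar in dsVg pool 5 and dsGFP pool 5, whereas those of miR-210 lie at least 6.04-fold above it on average.

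Spots of 1 array agreed far more closely than pools did. The coefficient of variation over the 18 spots was 3.80% to 7.72% in dsVg pools and 3.93% to 7.96% in dsGFP pools for miR-31a. For miR-210 it was 2.04% to 3.28% in dsVg pools and 1.76% to 13.6% in dsGFP pools. The highest of these, in dsGFP pool 2, came with 1 spot at 3489 where the highest was at 7809. In log2, the SD between spots of an array was 0.093 for miR-31a and 0.090 for miR-210. The SD between pools within groups, after normalization, was 0.55 for miR-31a and 0.56 for miR-210. The pool is therefore the unit in every test.

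For the comparison between groups, intensities were corrected with normexp, averaged over the spots in log2 and quantile-normalized. Quantile normalization gives every array the same set of values, so pools in which a miRNA held the same rank have identical values. The normalized signal of miR-31a was 9.48, 8.40, 7.49, 8.18, 9.20 and 8.002 in dsVg pools 1 to 6, against 7.88, 7.64, 7.88, 8.18, 7.75 and 7.70 in dsGFP pools 1 to 6. The dsVg pools 1, 2 and 5 lay above every dsGFP pool, dsVg pool 3 lay below every dsGFP pool, and the others overlapped. The mean was 8.46 ± 0.75 in dsVg pools and 7.84 ± 0.20 in dsGFP pools (SD, n = 6 each). The difference was 0.62 (SE 0.30, 95% interval -0.02 to 1.26), or 1.54-fold (0.984 to 2.40). Of the 6 dsVg pools, 5 lay above the dsGFP mean. The difference did not pass the threshold (limma p = 0.0575, adjusted p = 0.666 over 84 miRNAs, two-sided exact permutation p = 0.0823, with 0.00216 as the smallest p possible). In bulk tissue, a different number of cells with a miRNA and a different amount of it per cell cannot be told apart.

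The normalized signal of miR-210 was 12.86, 12.41, 11.34, 11.99, 13.21 and 11.68 in dsVg pools 1 to 6, against 11.68, 11.99, 11.99, 12.55, 11.68 and 11.68 in dsGFP pools 1 to 6. Here dsVg pools 1 and 5 lay above every dsGFP pool, dsVg pool 3 lay below every dsGFP pool, and dsGFP pool 4 was the highest control. Before normalization dsVg pool 3 was not low, with an intensity of 499 for miR-31a and 7568 for miR-210. Its log2 margins over the empty spots, 1.84 for miR-31a and 5.76 for miR-210, were the highest of the dsVg pools. Its lowest place is thus one in normalized signal only. The mean was 12.25 ± 0.71 in dsVg pools and 11.92 ± 0.34 in dsGFP pools (SD, n = 6 each). The difference was 0.32 (SE 0.30, 95% interval -0.33 to 0.98), or 1.25-fold (0.794 to 1.97), and 4 of 6 dsVg pools lay above the dsGFP mean. It did not pass the threshold either (limma p = 0.304, adjusted p = 0.772, two-sided exact permutation p = 0.355). The intervals reach 2.40-fold for miR-31a and 1.97-fold for miR-210, so changes of that size were not excluded.

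**Figure D2:**
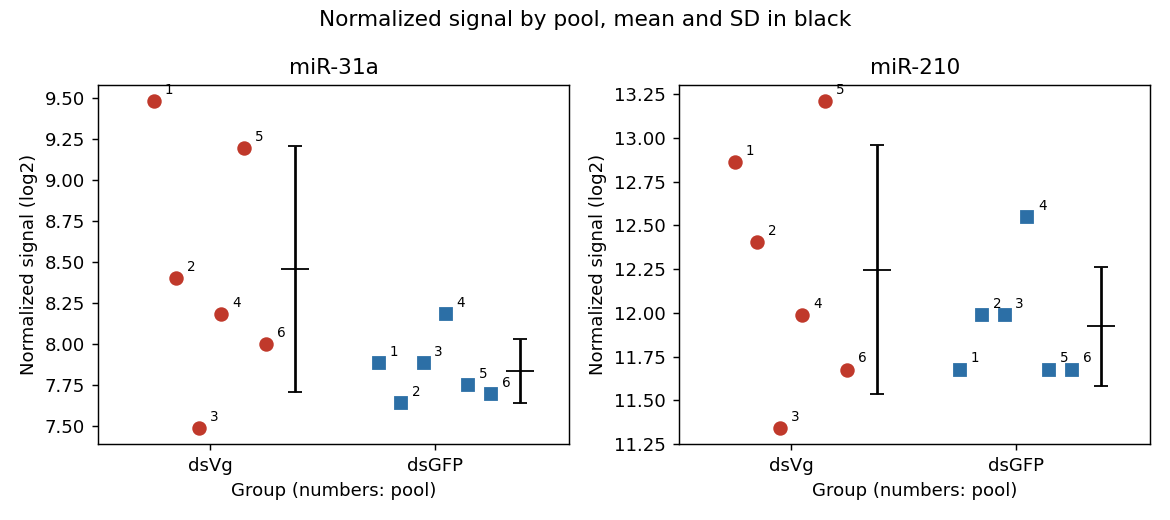
Normalized log2 signal of miR-31a (left) and miR-210 (right) in dsVg pools (red circles) and dsGFP pools (blue squares), numbered by pool, with the group mean and SD (n = 6 each) in black. In both panels dsVg pools 1 and 5 lie highest and dsVg pool 3 lowest, and the dsGFP pools fall between them.

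Neither miRNA was thus called with limma, among 0 of 84 tested (0.0%) that passed an adjusted p of 0.05. At an unadjusted p under 0.05 there were 3 of 84 (3.57%), namely miR-375, miR-1 and miR-275, of which miR-375 is named only after its value was seen. Of the 84 miRNAs, 45 (53.6%) had a positive difference, as both of these did, and the groups were free of overlap for 0 of 84 (0.0%). Ordered by limma p, miR-31a was at place 5 and miR-210 at place 31 of 84. The dsVg pools were more spread out than the dsGFP pools, by a ratio of SDs of 3.84 for miR-31a and 2.09 for miR-210, a description with no test. The SD between pools ranked 17 of 84 for miR-31a and 15 of 84 for miR-210 from the most variable, against a median of 0.34. Among the 33 miRNAs detected on all arrays, whose median was 0.49, they ranked 9 and 7.

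The highest normalized values of each miRNA were in dsVg pools 1 and 5. In dsVg pool 5 miR-31a did not reach the threshold of 3 SD, and in dsVg pool 1 it was at 1.37-fold over the 95th percentile of the empty spots. Leaving these pools out had to lower the differences. Without both, a setting chosen after the values were seen, the difference was 0.18 for miR-31a (limma adjusted p = 0.992) and -0.07 for miR-210 (limma adjusted p = 1.0). With 1 pool left out, that of miR-31a ran from 0.42 without dsVg pool 1 to 0.81 without dsVg pool 3. That of miR-210 was 0.20 when dsVg pool 1 was left out, 0.13 when dsVg pool 5 was, and 0.50 when dsVg pool 3 was. Within the arrays with over 80 detected miRNAs the difference was 0.48 for miR-31a and 0.13 for miR-210. Within the other arrays it was 0.77 for miR-31a and 0.51 for miR-210.

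The way arrays were scaled or weighted moved both values. The difference of miR-210 was 0.94 with no normalization between arrays (exact permutation p = 0.0390, limma adjusted p = 0.828). It was 0.88 after scaling to the median of the miRNA probes and 0.56 with cyclic loess (exact permutation p = 0.0390, limma adjusted p = 0.437). The difference of miR-31a was 0.28 with cyclic loess, 0.35 after scaling to the 75th percentile and 1.10 with the median of the empty spots subtracted. With arrays weighted by quality, the differences were lower, at 0.35 for miR-31a (limma adjusted p = 0.345) and 0.14 for miR-210 (limma adjusted p = 0.781). Both remained positive under each scaling, weighting and background setting tried, and no adjusted p passed 0.05. The median over all 84 tested miRNAs was 0.03 after quantile normalization and 0.15 with no normalization.

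The authors' deposited table of processed intensities gives a second view of the same arrays. In it miR-31a stood at 218, 172, 80, 139, 243 and 107 in dsVg pools 1 to 6, against 99, 96, 91, 131, 71 and 82 in dsGFP pools 1 to 6. The pools with the highest values in the authors' deposited table were again dsVg pools 5, 1 and 2, and the groups overlapped. The difference on the log2(value + 1) scale was 0.67 (SE 0.27, limma p = 0.0283, adjusted p = 0.525, exact permutation p = 0.0411). In the authors' deposited table miR-210 stood at 8402, 3873, 1645, 3322, 10810 and 2680 in dsVg pools 1 to 6, against 2206, 2788, 2071, 4088, 1679 and 2422 in dsGFP pools 1 to 6. Here dsVg pools 5 and 1 lay above all other pools, and dsVg pool 3 was the lowest of all 12. The difference on that scale was 0.77 (SE 0.41, limma p = 0.0841, adjusted p = 0.531, exact permutation p = 0.139).

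**Figure D3:**
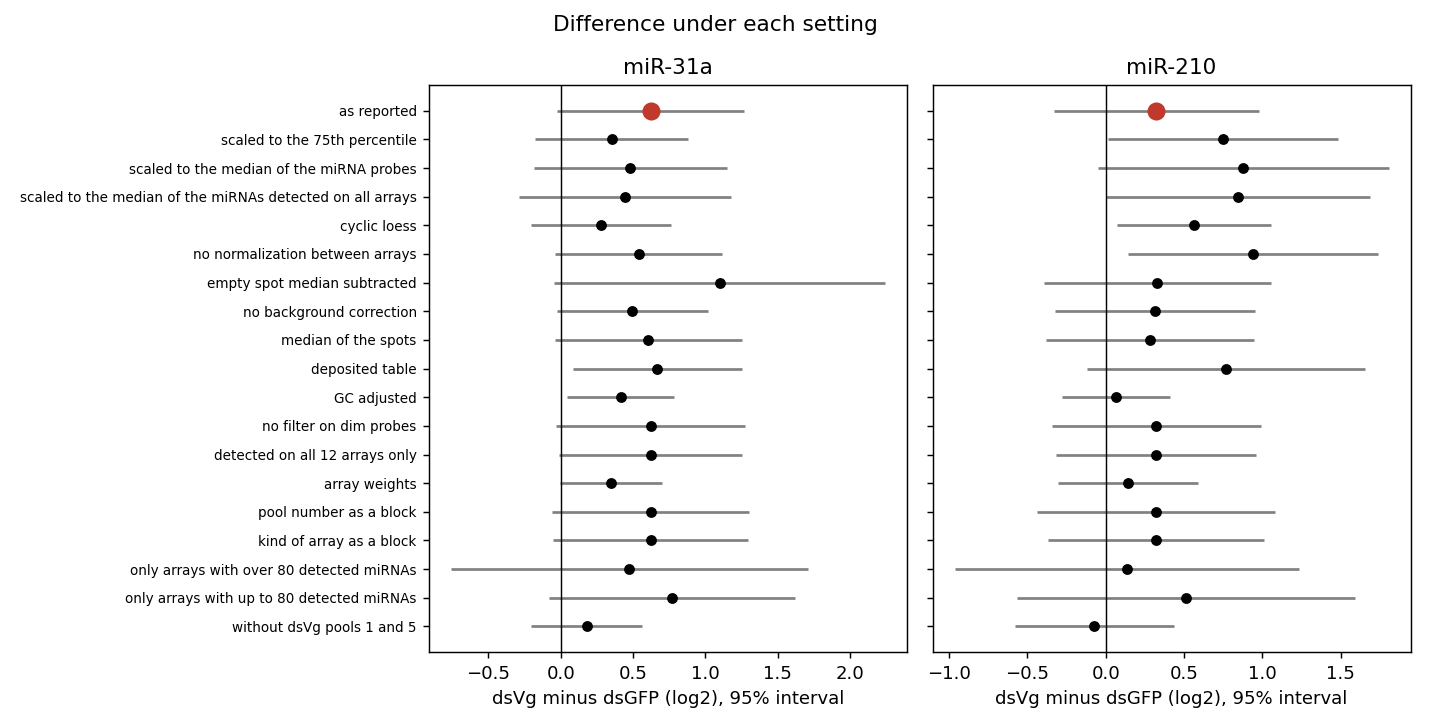
Difference in log2 signal, dsVg minus dsGFP, of miR-31a (left) and miR-210 (right) with its 95% interval from limma, as reported (red) and under each other setting (black); the fits that leave out 1 pool are not drawn. Both stay above 0 except miR-210 without dsVg pools 1 and 5, at -0.07.

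The 2 miRNAs moved together from pool to pool. Over the 12 pools Pearson's r was 0.897 (permutation p = 0.0002, adjusted p = 0.00153 over 9 relations) and Spearman's rho was 0.815 (permutation p = 0.00176, adjusted p = 0.0158). Both values of a pool come from 1 array and 1 normalization. Without dsVg pools 1 and 5, the 2 farthest from the median of miR-31a, r was 0.778. Among the dsVg pools alone r was 0.949 (n = 6, exact permutation p = 0.00694, adjusted p = 0.0125), with the pools in nearly the same order for both miRNAs. Among the dsGFP pools r was 0.757 (n = 6, exact permutation p = 0.117, adjusted p = 0.150) and rho was 0.391 (exact permutation p = 0.417, adjusted p = 0.536). Within the arrays with over 80 detected miRNAs r was 0.879 (n = 6, exact permutation p = 0.0111), and within the others it was 0.926 (n = 6, exact permutation p = 0.0667).

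**Figure D4:**
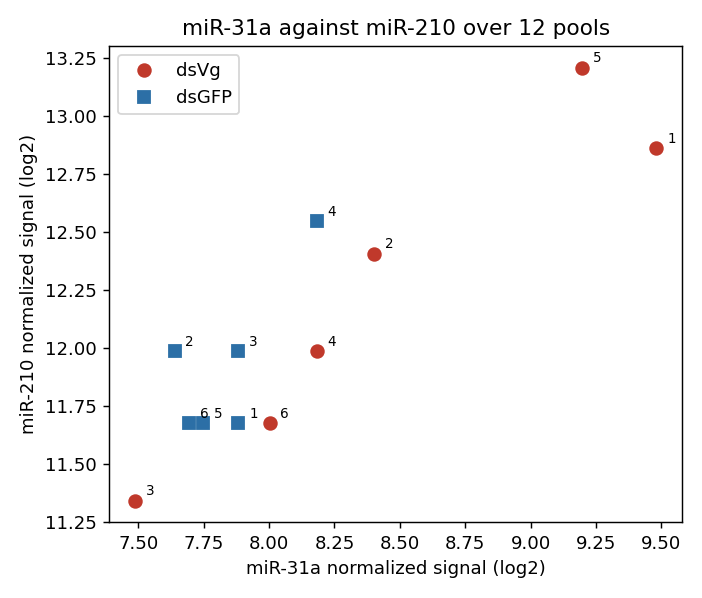
Normalized log2 signal of miR-31a (horizontal) against miR-210 (vertical) in 6 dsVg pools (red circles) and 6 dsGFP pools (blue squares), numbered by pool. Pearson's r over the 12 pools is 0.897, and dsVg pools 1 and 5 lie at the upper right.

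Since both sequences are rich in G and C, the dependence of signal on GC content was measured on each array from the other 31 miRNAs detected on all arrays. Its slope, in log2 per 10 points of GC content, was 0.29, 0.016, -0.32, -0.20, 0.91 and -0.12 in dsVg pools 1 to 6, against -0.091, -0.16, -0.23, 0.0033, -0.049 and -0.043 in dsGFP pools 1 to 6. The slope was steepest upwards in dsVg pools 5 and 1 and steepest downwards in dsVg pool 3. In normalized signal these were the pools in which both miRNAs were highest and lowest. Its mean was 0.096 ± 0.45 in dsVg pools and -0.096 ± 0.087 in dsGFP pools (SD, n = 6 each, two-sided exact permutation p = 0.398).

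The slope was related to miR-31a over the 12 pools with r of 0.805 (permutation p = 0.00514, adjusted p = 0.0116) and rho of 0.695 (permutation p = 0.0145, adjusted p = 0.0363). It was related to miR-210 with r of 0.838 (permutation p = 0.00034, adjusted p = 0.00153) and rho of 0.667 (permutation p = 0.0202, adjusted p = 0.0363). Without dsVg pools 1 and 5, r was 0.529 for miR-31a and 0.556 for miR-210, so much of both relations rests on those pools. Within the arrays with over 80 detected miRNAs r was 0.959 for miR-31a (n = 6, exact permutation p = 0.00278) and 0.892 for miR-210 (n = 6, exact permutation p = 0.0194). Within the other arrays r was 0.895 for miR-31a (n = 6, exact permutation p = 0.144), with a rho of 0.20 (exact permutation p = 0.714). For miR-210 it was 0.923 there (n = 6, exact permutation p = 0.167), with a rho of 0.0 (exact permutation p = 1.0).

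After each array's GC line was subtracted, an adjustment chosen after the values were seen, the SD between pools was 0.27 for miR-31a and 0.25 for miR-210, against 0.55 and 0.56 before it. The median SD of the 33 miRNAs detected on all arrays was 0.35 after the adjustment and 0.49 before it, and that of all 84 tested was 0.38 after and 0.34 before. The difference between groups was then 0.41 for miR-31a (SE 0.17, limma p = 0.0305, adjusted p = 0.640, exact permutation p = 0.00649). For miR-210 it was 0.07 (SE 0.16, limma p = 0.683, adjusted p = 0.842, exact permutation p = 0.641). The r between the 2 miRNAs was 0.534 after this adjustment (permutation p = 0.0499).

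**Figure D5:**
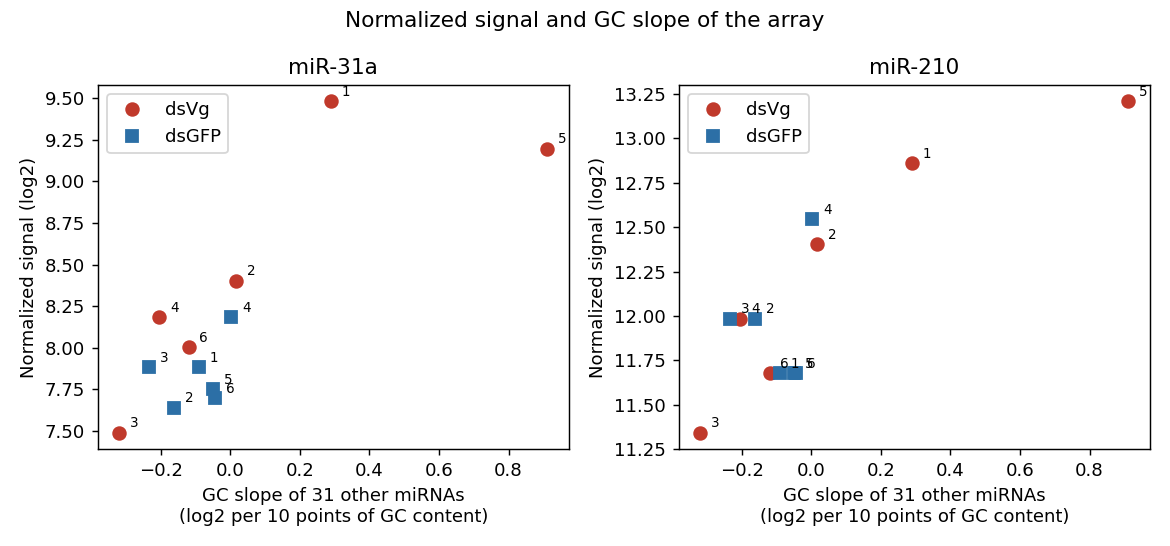
Normalized log2 signal of miR-31a (left) and miR-210 (right) against the slope of signal on GC content over 31 other miRNAs of the same array, in log2 per 10 points of GC content, for dsVg pools (red circles) and dsGFP pools (blue squares), numbered by pool. The steepest slopes, 0.91 and 0.29, belong to dsVg pools 5 and 1, where both miRNAs are highest.

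The miRNAs with the most similar pattern were found by Pearson's r over the 12 pools after the group means were subtracted, among the other 83 tested miRNAs. For miR-31a they were miR-989 (r = 0.967), miR-3049 (0.927) and miR-3719 (0.918), with miR-210 next at 0.911. For miR-210 they were the neuronal miR-124 (r = 0.951), miR-275 (0.925), known from the mosquito gut and fat body, and miR-34 (0.916), known from the ageing fly brain. The miRNA with the lowest r was miR-29b for miR-31a (-0.929) and miR-279 for miR-210 (-0.911). All share the array and the normalization, and these values are a description.

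Their target sequences, shown for composition and with the seed in capitals, follow in that order, the last 2 being those of the lowest r.
miR-989: cGUGAUGUgacguagugguucu
miR-3049: uCCGUCCAacuccuuuccgucu
miR-3719: uACGGAUUgcgugacuuuucga
miR-124: uAAGGCACgcggugaaugccaag
miR-275: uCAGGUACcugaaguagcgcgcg
miR-34: uGGCAGUGuuguuagcugguug
miR-29b: uAGCACCAuuugaaaucagu
miR-279: uGACUAGAuccacacucauuaa
The 6 of the highest r hold 45.5% to 60.9% G and C, and miR-29b and miR-279 hold 35.0% and 36.4%. No seed is common to any of them and miR-31a or miR-210.

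Beside both stood 21 other miRNAs discussed in work on nurses, foragers or bee behaviour, all of them tested. Of these 10 had a positive and 11 a negative difference, 0 passed the adjusted threshold in either direction, and the median difference was -0.07, against 0.03 over all 84 tested. The smallest p-values belonged to the muscle miRNA miR-1, at -0.90 (SE 0.37), miR-275, at 0.61 (SE 0.27), miR-124, at 0.85 (SE 0.41), and miR-133, another muscle miRNA, at 0.57 (SE 0.27). Each had a limma adjusted p of 0.666. The share called is that of all tested miRNAs, 0.0%.

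The labelled tissue was checked against miRNA markers, with miR-31a and miR-210 left out. Of 6 brain markers, miR-124, miR-276 and miR-2796 were detected in all pools. The weakest, miR-9a, was detected in 3 of 6 dsVg pools and 3 of 6 dsGFP pools. The summed normalized signal of these 6 in log2 was 14.46 to 15.05 in dsVg pools and 14.57 to 14.73 in dsGFP pools. All 3 eye and sensory organ markers, miR-7, miR-263 and miR-263b, were detected in all pools, with sums of 12.11 to 13.51 in dsVg pools and 12.53 to 13.77 in dsGFP pools. Both muscle markers were tested, with sums of 9.01 to 10.27 in dsVg pools and 9.17 to 10.36 in dsGFP pools. All 4 gut, fat body and epithelial markers were tested as well, with sums of 10.38 to 11.91 in dsVg pools and 10.32 to 10.91 in dsGFP pools. The correction with normexp adds an offset of 50, so no sum could be at 0. The sums therefore do not show whether a marker was present. By detection, miR-133 and miR-275 passed in all pools, and miR-1 in 5 of 6 dsVg pools and all dsGFP pools. The markers miR-375, miR-989 and miR-750 were detected in 3, 5 and 3 of 6 dsVg pools, and in 6, 5 and 3 of 6 dsGFP pools. The part of these lists in the values of miR-31a and miR-210 was not tested.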

How the data were processed

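Small RNA of 12 brain pools was measured on 1-colour Cy3 arrays by a service provider, per the labels' protocols. The deposited scanner tables hold spot intensity on a linear scale with the background not subtracted, and the pixel spread, per the file headers, with 3968 spots per array and 18 per miRNA. The authors' deposited table holds processed intensity as whole numbers, but how it was background-corrected, normalized, centred and scaled is not known here, and neither are the scanner and image software. Here spots were corrected with normexp (offset 50) and averaged in log2, and the 168 probes were quantile-normalized with limma 3.58.1 (R 4.3.3). Testing required detection on 6 or more of the 12 arrays. Groups were compared with limma (lmFit, eBayes, two-sided, Benjamini-Hochberg) and exact permutation over 924 assignments. Correlations used 100000 resamples, or all orders for 6 pools. The number of arrays limits the precision. On simulated data with 84 miRNAs of these means and spreads, 77% of changes of 1 in log2 were recovered. The draws were independent, with the same SD in both groups. That share is over all 84 miRNAs, whose median SD was 0.34, against 0.55 for miR-31a and 0.56 for miR-210. It therefore does not give the share for these 2.

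The miRNAs named were miR-31a and miR-210, for each the 3 with the highest and the 1 with the lowest r, any with the same seed, and the 4 of the behaviour list with the smallest p. Members and lists were chosen with earlier results of these data known. The 30 within-group pairs of arrays all differed by more than spot noise (reduced chi-square of 33.4 or more). Whether pools shared bees is not stated, so p-values measure the spread between pools.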

Additional observations from a re-analysis of the deposited data

Results flagged for a closer look

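The normalized log2 signal of miR-210 in dsGFP pool 4, at 12.55, lay far from those of the other 5 dsGFP pools (11.68 to 11.99), with a gap to the nearest of 0.645 of the group's range. It was the only one of 14 groups of 6 values examined in this way that was marked, and chance marks about 1 in 20. Without that pool the difference between dsVg and dsGFP pools was 0.45 for miR-210 and 0.69 for miR-31a. In the authors' deposited table, which comes from the same arrays, this pool also had the highest miR-210 value of the dsGFP pools, 4088. Before normalization it did not, as its mean intensity of 4340 was below those of dsGFP pools 2 and 3, at 7270 and 5437.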

How the results depend on the processing

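The difference of miR-31a was positive under all 30 alternatives (0.18 to 1.10, limma adjusted p 0.219 to 0.995) and that of miR-210 under 29 of 30 (-0.07 to 0.94, adjusted p 0.382 to 1.0). The exception, without dsVg pools 1 and 5, gave -0.072. The alternatives overlap in data. The filters on probes and the blocks for pool number and kind of array could not move either difference, which stayed at 0.62 and 0.32. An unadjusted p was under 0.05 in 4 of 30 for each. With 1 pool left out the differences ran from 0.42 to 0.81 for miR-31a and from 0.13 to 0.50 for miR-210, and the margins over the empty spots from -0.092 to 0.36 for miR-31a and from 0.30 to 0.99 for miR-210. The margin of miR-31a turned to -0.019 without dsGFP pool 5 and -0.092 without dsVg pool 3. The cause of these changes was not tested. With array weights 1 miRNA passed the adjusted threshold, miR-375, named after its value was seen. The relation between them had r of 0.534 to 0.956 over 26 alternatives. Its p exceeded 0.05 in 1, the arrays with up to 80 detected miRNAs (r = 0.926), which hold 6 pools. Pool numbers are common to both groups, but same-numbered pools did not deviate together (r of -0.53 to 0.54 over 6 pairs). With a replicate block for pool number, the differences had to stay at 0.62 for miR-31a and 0.32 for miR-210, since each number occurs once per group. The limma adjusted p was then 0.753 for both, and no call changed. Signal over background limits miR-31a in particular, at 1.08-fold over the 95th percentile of the empty spots in dsGFP pool 5, and it was detected on 10 of 12 arrays with a threshold of 3 SD.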
